A study of Mus musculus with 2 samples.

Results

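Potassium channel genes were described here by the DNase I accessibility of their promoters and gene bodies. All protein-coding genes whose symbol begins with Kcn in the mouse GENCODE M21 annotation of mm10 were taken, 94 of the 21938 protein-coding genes outside the mitochondrial chromosome, and grouped by symbol prefix. Most Kcn genes encode the pore of a channel, and the others (Kcnab, Kcne, Kcnip, Kcnmb and Kcnrg) encode subunits or regulators that bind to one.

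The samples are urinary bladders of male mice, 14 days old, of strain B6CASTF1/J, the first-generation hybrid of C57BL/6J and CAST/EiJ. DNase-seq, in which a nuclease cuts DNA that nucleosomes leave exposed and the cut ends are sequenced, was done on 2 biological replicates of this 1 group. The source label of both replicates reads male, in the singular, so it does not give the number of animals. For replicate 2, 3 males were pooled, and for replicate 1 the number is not known. Both replicates carry the same donor label, and the labels do not say whether they are separate animals, litters or days, so the spread between them may be technical. There was no second condition, so no difference was tested.

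Potassium channels let potassium leave the cell and so hold the membrane potential negative. In bladder smooth muscle this limits calcium entry and contraction, and the large-conductance calcium-activated channel (BK), the small-conductance ones (SK), the KCNQ channels and the ATP-sensitive channel are the classes best known for it. In the urothelium, which lines the lumen, inward rectifier, tandem-pore and calcium-activated channels have been described.

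Each replicate has a peak list of the authors with a signal per peak, a density in deposited units. A shared region is a chain of overlapping peaks that holds peaks of both replicates, and 73164 were found. Replicate 1 had 139821 peaks with a median signal of 0.687, and replicate 2 had 82225 with a median of 0.887, so replicate 1 had more and weaker peaks. The tissue labels were checked with marker genes. Promoters of all 8 smooth muscle markers and all 8 urothelial markers had a shared region, against 0 of 4 hepatocyte markers. The counts were 5 of 5 for stromal, 2 of 5 for endothelial, 3 of 6 for neural or glial and 1 of 5 for striated muscle markers. Beside these, 66.1% of all protein-coding genes had one, so the last 3 lists lay under the background. In a whole organ, a low signal from few cells of a type and a low signal per cell cannot be told apart.

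Open promoters are those with a shared region overlapping the 1 kb on either side of any of the gene's transcription start sites (TSSs). By this rule 62 of the 94 Kcn promoters were open, 66.0% against 66.1% of all protein-coding genes, so the share of open promoters was near the background. The signals were not near it. Over the 62 open genes the mean promoter signal of the replicates had a median of 1.24 and ranged from 0.235 to 13.6, against a median of 4.61 over all open genes. Of the 62 genes, 59 lay under that all-gene median and 47 lay under the lower quartile of 2.15. The Kcn median was 1.28 in replicate 1 and 1.08 in replicate 2, where all genes had 5.01 and 4.19, so both replicates showed the lower level. A promoter signal under 4.61 was not particular to Kcn genes. The medians were 1.58 for the smooth muscle, 2.79 for the urothelial and 2.66 for the stromal markers. Among these markers only Smtn, with 6.01, passed 4.61.

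The authors' stricter peak lists held fewer Kcn promoters than the background. A promoter region was shared between the stricter lists for 44 genes, 46.8% against 61.8% of all genes, and 71.0% of the open Kcn genes were kept against 93.5% of all open genes. Footprints, the short stretches that a bound protein shields from cutting, were called in both replicates at 48 promoters, 51.1% against 61.9%. Among open promoters these were 77.4% for Kcn genes and 93.6% for all genes. A peak in 1 replicate only was found for 15 of the 77 Kcn genes with any promoter peak. The share was 19.5%, against 6.58% of all protein-coding genes with any promoter peak. The signal of these 15 peaks ran from 0.193 to 0.942.

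Promoters were also split by base composition. A promoter was called CpG-rich where the 1 kb around any TSS had at least 50% G and C and an observed over expected CpG ratio of at least 0.6. Of the 50 CpG-rich Kcn promoters 41 were open, 82.0% against 96.2% of all CpG-rich promoters, and their median signal was 1.30 against 5.73. Of the 44 CpG-poor ones 21 were open, 47.7% against 34.5%, with a median of 1.08 against 2.04. The lower signal was thus present in both classes, while the open share was lower than the background in the CpG-rich class and higher in the CpG-poor one. The strongest promoter region also lay within 1 kb of another coding gene's TSS for 1 of the 62 open Kcn genes (1.61%), Kcnab2 with Nphp4, against 19.0% of all open genes. Without such genes the medians were 1.22 and 4.06.

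**Figure D1:**
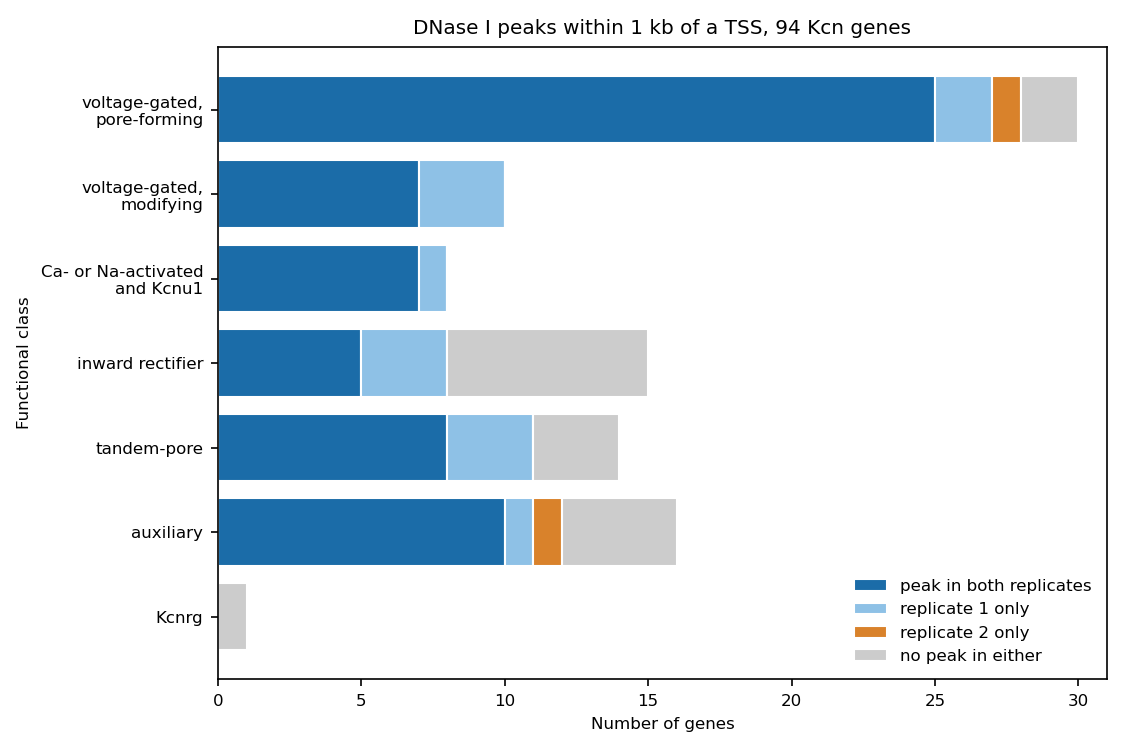
Number of genes (horizontal axis) in each functional class of the Kcn genes (vertical axis) by promoter state: a peak in both replicates, in replicate 1 only, in replicate 2 only, or in neither. The inward rectifiers have the most genes without a peak, 7 of 15, while 25 of the 30 pore-forming voltage-gated genes are open. Of all protein-coding genes 66.1% are open and 29.0% have a peak in neither replicate. CpG-rich promoters make up 6 of the 15 and 22 of the 30, and 51.2% of all protein-coding genes.

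Pore-forming subunits of the voltage-gated channels, which open on depolarization, were open at 25 of 30 promoters, from Kcna, Kcnb, Kcnc, Kcnd, Kcnh and Kcnq. That share was 83.3%, against 66.1% of all protein-coding genes. The open ones had a median signal of 0.935, and 15 of the 25 were kept in the stricter lists, against 93.5% of all open genes. The Kcnh gene with the highest signal was Kcnh1, with 4.64 in replicate 1 and 3.30 in replicate 2, followed in its subfamily by Kcnh2, the hERG channel gene, with 2.53 and 2.10, Kcnh6 with 2.78 and 1.70, and Kcnh3 with 2.19 and 1.13. Kcnc1, a fast delayed rectifier, had 3.05 and 2.27. These 5 genes stood over the Kcn median of each replicate but under the all-gene median of 4.61 in their mean.

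Low values were common in the same class. Kcna5, a delayed rectifier of vascular and other smooth muscle, had 0.495 and 0.496, and Kcna2 had a peak of 0.500 in replicate 1 and none in replicate 2. Kcnd3, an A-type channel gene, had 1.08 and 1.09, and its relative Kcnd2 had 0.437 and 0.368. The lowest of all open Kcn genes was Kcnh7, with 0.182 and 0.288. Kcna7 led the Kcna subfamily with 2.81 and 2.34, followed by Kcna3 with 1.19 and 1.17. Replicate 1 was the higher in 50 of the 62 open Kcn genes and in 11889 of the 14500 open protein-coding genes. The median log2 ratio was 0.325 against 0.251 over all open genes.

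Among the KCNQ genes, whose channels include those of the slow M-type current, Kcnq1 had 1.99 and 1.08, Kcnq5 had 1.22 and 1.22, and Kcnq3 had 0.968 and 0.688. The replicates of Kcnq5 were equal to 3 digits, whereas those of Kcnq1 were further apart. If 1 step of the signal scale is 1 cut, the Poisson 95% intervals of Kcnq1 were 1.79 to 2.20 and 0.905 to 1.28. They did not overlap, and they cover counting error only. Under that assumption the intervals of the replicates overlapped for 37 of the 62 open genes. The same count was not made over all open genes, so it has no background beside it. The modifying subunits of Kcnf, Kcng, Kcns and Kcnv, which form no channel by themselves, were open at 7 of 10 promoters. Over all protein-coding genes the open share was 66.1%, so this count was near the background. The open modifying subunits were led by Kcns2 with 1.72 and 1.33, Kcng1 with 1.25 and 1.36, and Kcnf1 with 0.906 and 0.823.

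Among the calcium-activated channels, Kcnma1, the pore of the BK channel (chr14:23289431-24014491, minus strand), had a promoter signal of 0.859 in replicate 1 and 0.632 in replicate 2. This is 0.745 ± 0.161 (SD, n = 2), under the Kcn median, at a region that also lies at the TSS of the non-coding gene 4930519K11Rik. Its smooth muscle partner Kcnmb1, the subunit that raises the calcium sensitivity of BK, had 0.531 and 0.416, and Kcnmb4 had 0.573 and 0.688. The Kcnmb1 promoter was not open in the stricter lists and held no footprint in either replicate. With equal numbers of peaks neither the Kcnmb1 nor the Kcnmb4 promoter was open. Kcnmb2 and Kcnmb3 had no promoter peak in either replicate. The SK genes were higher, with 3.27 and 2.46 at Kcnn3, 2.74 and 1.53 at Kcnn2, and 1.92 and 1.36 at Kcnn1. The signals of these 3 SK genes were above those of all 3 open BK genes in both replicates. This depends on which start sites are counted. With the 5′-most TSS only, the Kcnn2 mean of 2.14 became 1.03, and the Kcnn1 and Kcnma1 promoters were not open. The Kcnn1 promoter was not open in the stricter lists either, and with windows of 2500 bp its mean of 1.64 became 11.6. Kcnn4, the intermediate-conductance channel gene of epithelia and blood cells, had a promoter peak of 0.942 in replicate 1 and none in replicate 2. Kcnt1 had 0.911 and 0.536 and Kcnt2 had 1.09 and 1.07, and Kcnu1, known from sperm, had 0.266 and 0.440.

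The inward rectifiers, Kcnj, had the lowest open share of the large subfamilies, 5 of 15 promoters or 33.3%, against 66.1% of all genes. Of the 15, 6 were CpG-rich, against 22 of the 30 pore-forming voltage-gated genes and 51.2% of all protein-coding genes. A peak in replicate 1 only was found for 3 more (Kcnj12 with 0.375, Kcnj5 with 0.448 and Kcnj3 with 0.193), and 7 had none. Over all protein-coding genes, 4.13% had a peak in replicate 1 only and 29.0% had none. The 5 open ones were all kept in the stricter lists, all held a shared footprint, and had a median of 1.88. Among all open genes 93.5% were kept and 93.6% held a shared footprint. Kcnj2, a strong inward rectifier that sets the resting potential, had 5.51 and 4.82. The pores of the ATP-sensitive channel, Kcnj8 and Kcnj11, had 2.32 and 1.95, and 2.33 and 1.42. Kcnj10 had 2.29 and 1.45. The 7 without a peak in either replicate were Kcnj1, Kcnj6, Kcnj9, Kcnj13, Kcnj14, Kcnj15 and Kcnj16.

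The tandem-pore genes, Kcnk, which carry background or leak currents, were open at 8 of 14 promoters, 57.1% against 66.1% of all genes. All 8 held a shared footprint, as did 93.6% of all open genes. Kcnk5, an alkaline-sensitive channel of epithelia, had 6.48 and 4.71, and Kcnk1 had 4.52 and 3.69. Kcnk4 had 2.31 and 2.03, Kcnk3 had 2.19 and 2.05, and Kcnk6 had 1.31 and 1.22. Kcnk2, a stretch-activated channel studied in bladder muscle, had 0.656 and 0.959, with replicate 2 the higher. Kcnk7, Kcnk10 and Kcnk16 had a peak in replicate 1 only, and Kcnk9, Kcnk15 and Kcnk18 had none.

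Auxiliary subunits were open at 10 of 16 promoters, 62.5% against 66.1% of all genes. Kcnab2, a cytoplasmic beta subunit of Kcna channels, had the highest signal of any Kcn gene, 17.3 and 9.77, at the region that it shares with Nphp4. Kcnab3 had 4.64 and 2.96, and Kcnab1, the third beta subunit gene, had 0.463 and 0.368. The calcium-binding Kcnip subunits of Kcnd channels were led by Kcnip3 with 2.47 and 2.18, then Kcnip2 with 1.35 and 0.951. Kcne1 had 1.68 and 1.21 and Kcne3 had 1.56 and 1.25, both without a shared footprint, whereas Kcne4 had a peak of 0.541 in replicate 1 only and Kcne2 and Kcne1l had none. The remaining genes with a peak in replicate 1 only were Kcna6, Kcng4, Kcns1 and Kcnv2, those in replicate 2 only were Kcnh8 and Kcnip1, and Kcna10 and Kcnrg had none.

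**Figure D2:**
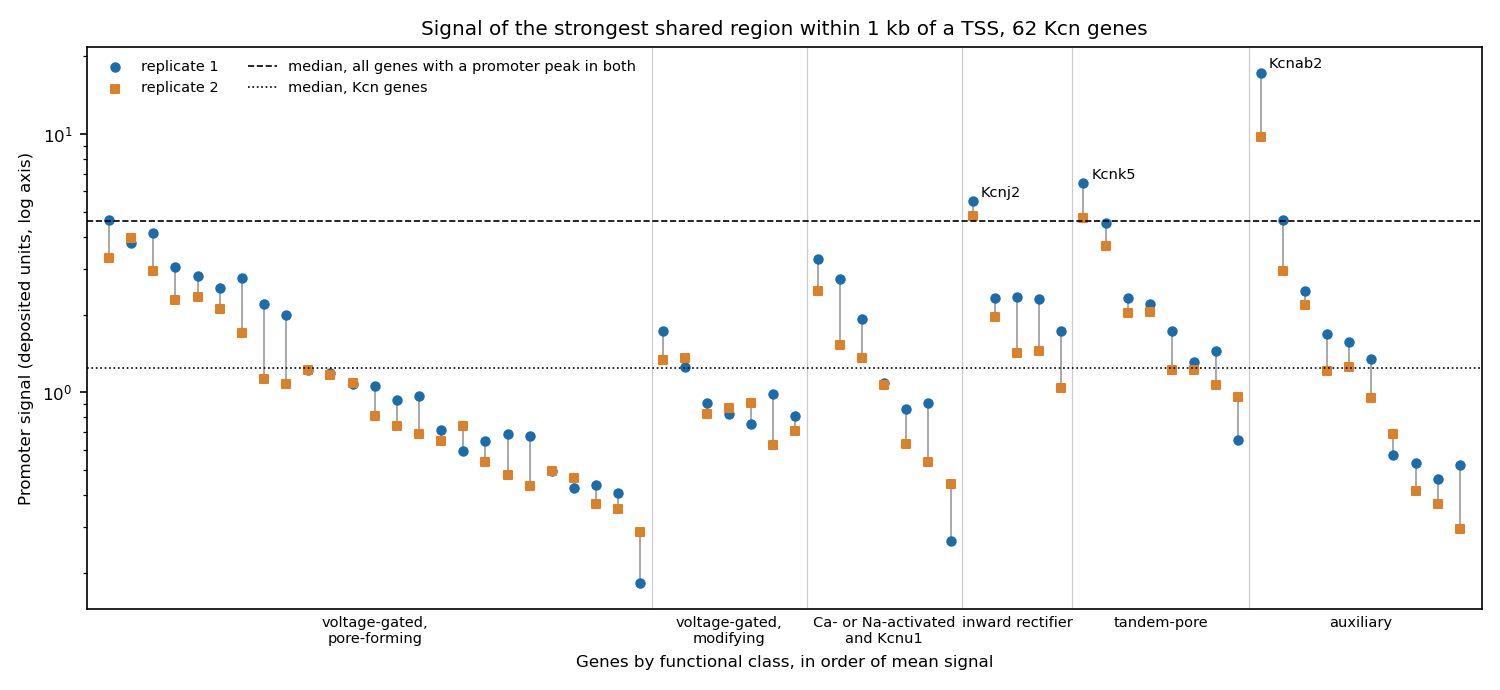
Promoter signal in deposited units (vertical log axis) of the 62 open Kcn genes, ordered by functional class and, within it, by mean signal (horizontal axis), with 1 point per replicate joined by a line. Kcnab2, Kcnk5 and Kcnj2 are the 3 genes whose mean passes the dashed all-gene median of 4.61, and the dotted line is the Kcn median of 1.24.

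The promoter sequences of 4 genes with high signals, 1 each from the tandem-pore, inward rectifier, Kcnh and SK classes, show what lies under the regions. The bases outside annotated exons are given, 5′ to 3′ on the gene's strand, from the C57BL/6J reference GRCm38.p6 of RefSeq. Capitals mark bases that lie within footprints of both replicates.
Kcnk5 promoter, chr14:20181810-20181940, minus strand: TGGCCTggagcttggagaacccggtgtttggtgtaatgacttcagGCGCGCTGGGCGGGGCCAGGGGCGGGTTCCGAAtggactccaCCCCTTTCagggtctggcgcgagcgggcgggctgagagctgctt
Kcnj2 promoter, chr11:111066001-111066163, plus strand: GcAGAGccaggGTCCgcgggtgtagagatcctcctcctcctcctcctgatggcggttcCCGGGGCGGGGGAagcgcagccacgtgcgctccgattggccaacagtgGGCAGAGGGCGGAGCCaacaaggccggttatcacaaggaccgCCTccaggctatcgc
Kcnh1 promoter, chr1:192190621-192190773, plus strand: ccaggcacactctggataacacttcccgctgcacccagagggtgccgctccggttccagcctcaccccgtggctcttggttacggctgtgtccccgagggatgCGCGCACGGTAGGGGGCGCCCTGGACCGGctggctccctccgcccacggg
Kcnn3 promoter, chr3:89519961-89520160, plus strand: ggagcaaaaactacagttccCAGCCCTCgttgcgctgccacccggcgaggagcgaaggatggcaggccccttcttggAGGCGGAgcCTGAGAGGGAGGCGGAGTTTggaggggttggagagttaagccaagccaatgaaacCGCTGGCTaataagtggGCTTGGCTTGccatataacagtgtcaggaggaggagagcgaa
In the Kcnk5 sequence 2 of the 3 matches to the GC box GGGCGG (either strand), at bases 53 to 58 and 65 to 70, were covered by shared footprints. In the Kcnj2 sequence both matches were covered, at bases 62 to 67 and 113 to 118. The Kcnh1 sequence had 1 match, outside its footprint, and the Kcnn3 sequence had none. The GC box was found in 48.2% of the 112 Kcn promoter regions and in 50.9% of the 24886 shared regions at all coding promoters, counted in the central 200 bp. The ETS letters CCGGAA were found in 6.25% against 16.6%, and the NRF1 letters GCATGCGC in 2.68% against 3.21%. A match is a description of the letters and not of a bound factor.

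Beyond the promoters, each gene body was taken with 10 kb on each side. These windows held 375 distinct shared regions, and 86 of the 94 windows held at least 1, 91.5% against 79.5% of all genes. The median was 3 regions per window for Kcn genes and for all genes. Kcn windows were longer, with a median of 50.8 kb against 37.4 kb, and per 100 kb the medians were 4.51 and 4.97. Of the regions, 112 lay within 1 kb of a TSS of their own Kcn gene, 145 lay in its introns, 17 in its exons, 48 in the flanks, 45 at another gene's TSS and 8 inside another coding gene. Thus 218 regions (58.1%) were more than 1 kb from any annotated TSS. Their median signal was 0.976, close to the 0.942 of all 45309 such regions in the genome, so the lower signals were seen at the promoters and not at these distal regions.

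Among the windows with most regions were those of Kcnq1 with 31, Kcnma1 with 15, Kcnn3 with 14, Kcnip1 with 12, Kcnip3 with 11, Kcnn1, Kcnn4 and Kcnq5 with 9 each, and Kcnd3, Kcnh2 and Kcnn2 with 8 each. All 4 SK and intermediate-conductance genes thus had at least 8, where the upper decile over all genes was also 8. The 8 of Kcnn2 lay in 437 kb, 1.83 per 100 kb against the median of 4.97 over all genes. Of the 9 of Kcnn1, 2 lay at other genes' TSSs. The order of the windows by count was not that of their length. The Kcnip4 window, the longest at 1155 kb, held 6 regions, and the Kcnn4 window of 36.4 kb held 9. The 8 windows with no shared region were those of Kcna2, Kcnj3, Kcnj12, Kcnj13, Kcnk10, Kcnk15, Kcnmb3 and Kcns1.

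**Figure D3:**
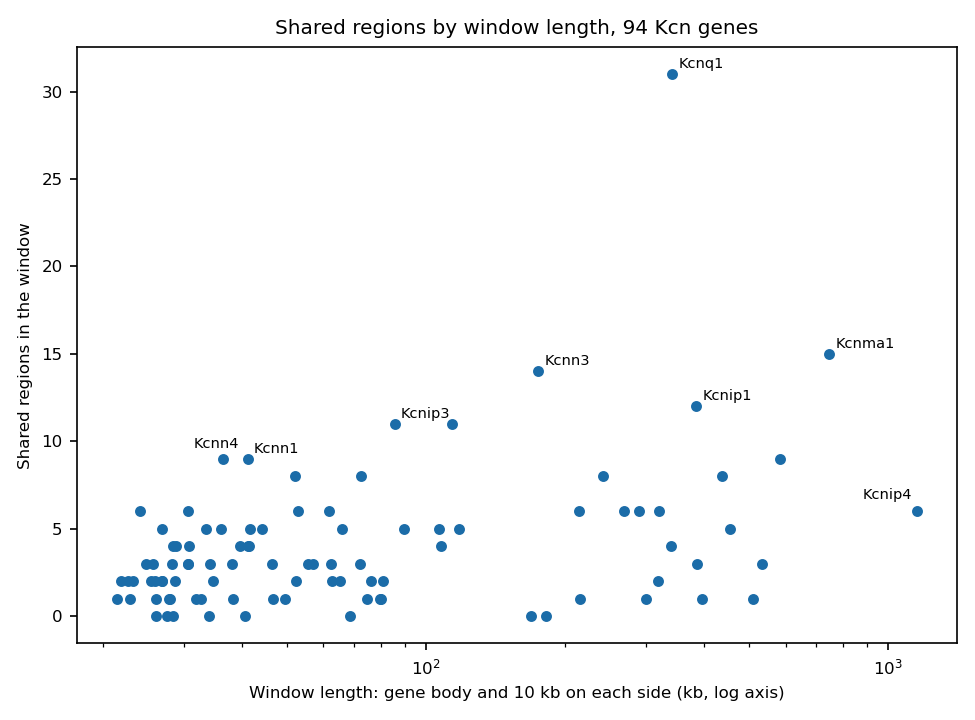
Shared regions in the window (vertical axis) against window length in kb (horizontal log axis), with 1 point per gene for all 94 Kcn genes. Kcnq1 stands apart with 31 regions, and Kcnn4 and Kcnn1, with 9 each, lie above the other windows of like length.

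Per 100 kb, among the 32 windows with at least 5 regions, the densest were Kcna7 with 24.9, Kcnn4 with 24.7, Kcnn1 with 21.8, Kcnk4 with 19.6, Kcnab3 with 18.7, Kcnh2 with 15.4, Kcne1 with 14.9, Kcnd1 with 13.9, Kcnip3 with 12.9 and Kcng1 with 12.0. Neighbouring genes supplied many of these regions. In the Kcna7 window 3 of 6 regions lay at the TSSs of Snrnp70 and Ntf5, in the Kcnk4 window 5 of 6 lay at those of Esrra, Catsperz, Bad and Gpr137, and in the Kcnab3 window 4 of 5 lay at other genes' TSSs. None of the 9 regions of Kcnn4 did, and none of the 8 of Kcnh2.

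Kcnma1 showed its strongest accessibility away from its annotated starts. The highest of its 15 regions, chr14:24008381-24008560 in an annotated intron of the gene, had 5.35 in replicate 1 and 2.43 in replicate 2 and lay 3.61 kb upstream of the nearest Kcnma1 TSS. Its mean of 3.89 exceeded the promoter mean of 0.745, in replicate 1 and in replicate 2 alike. The other 12 distal regions lay 55.3 to 625 kb from the 5′-most TSS, and the next strongest had 2.16 and 1.44.

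In the Kcnn4 window (gene at chr7:24370263-24386690) the 9 regions were all distal. The strongest, chr7:24364901-24365060, 5.28 kb upstream of the 5′-most TSS, had 4.82 and 3.84. A region 17.2 kb downstream of that TSS had 3.59 and 2.59, and 4 of the 9 lay in the gene body. The window held 4 further regions called in replicate 1 only, among them the promoter peak, and 4 called in replicate 2 only.

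The Kcnn3 window held 12 distal regions, 11 of them in the gene body, and none passed the 3.27 and 2.46 of its promoter. The strongest distal one, 6.77 kb into the gene, had 1.84 and 1.53. Kcnmb1 lies within the window of Kcnip1, and all 3 regions of the Kcnmb1 window were also counted for Kcnip1. They are the 3 regions of the series that fell into more than 1 Kcn window.

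**Figure D4:**
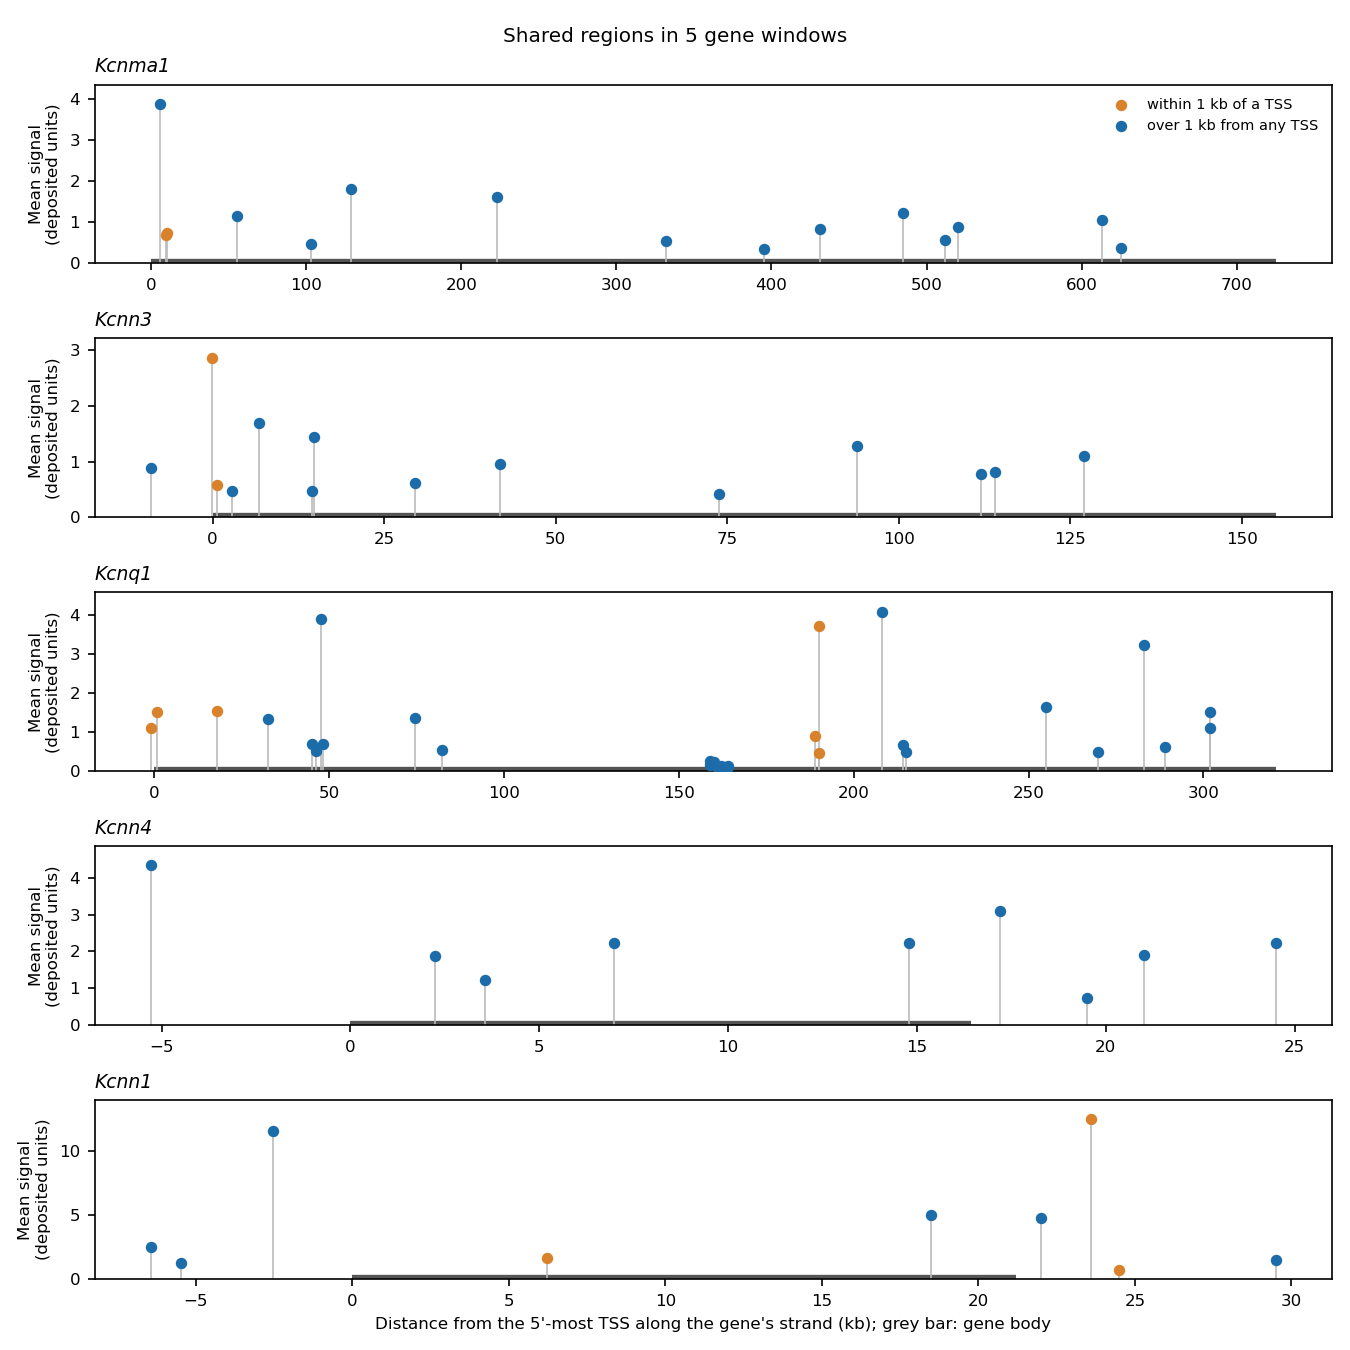
Mean signal of the replicates in deposited units (vertical axes) of each shared region against its distance in kb from the 5′-most TSS of Kcnma1, Kcnn3, Kcnq1, Kcnn4 and Kcnn1 (horizontal axes), with the gene body as a grey bar. Kcnma1 and Kcnn4 have their strongest region more than 1 kb from any TSS, and in Kcnn3 the strongest region is at the promoter.

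The 10 strongest distal regions of all Kcn windows, by mean rank of the replicates, lay in 7 windows, with 3 from Kcnn1, 2 from Kcnq1, and 1 each from Kcnn4, Kcnab2, Kcnip3, Kcne2 and Kcnma1. The strongest of all, chr8:70865661-70865940, lay 2.54 kb upstream of the 5′-most TSS of Kcnn1 and had 13.1 and 10.0, while the Kcnn1 promoter had 1.92 and 1.36. The next in the Kcnn1 window had 5.71 and 4.37, in an intron, and 5.35 and 4.16, at 1.52 kb from the TSS of Arrdc2. The Kcnq1 regions had 4.03 and 4.17 at chr7:143314021-143314220, and 4.15 and 3.67 at chr7:143153941-143154120, 44.8 kb from the nearest Kcnq1 TSS. The Kcnab2 region had 5.15 and 3.18, that of Kcnip3 had 4.32 and 3.25, and that of Kcne2, a gene with no promoter peak, had 4.92 and 2.85.

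Sequences are given whole for 1 region each of Kcnn1, Kcnn4, Kcnq1 and Kcnma1, the highest distal region of each of these windows, on the gene's strand and with capitals as above.
Kcnn1 upstream region, chr8:70865661-70865940, minus strand: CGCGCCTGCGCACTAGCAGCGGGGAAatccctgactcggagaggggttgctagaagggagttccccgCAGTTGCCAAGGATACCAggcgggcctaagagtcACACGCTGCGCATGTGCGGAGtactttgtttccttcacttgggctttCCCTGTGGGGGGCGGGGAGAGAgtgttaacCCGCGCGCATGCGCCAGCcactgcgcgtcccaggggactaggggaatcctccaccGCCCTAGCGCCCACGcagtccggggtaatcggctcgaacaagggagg
Kcnn4 upstream region, chr7:24364901-24365060, plus strand: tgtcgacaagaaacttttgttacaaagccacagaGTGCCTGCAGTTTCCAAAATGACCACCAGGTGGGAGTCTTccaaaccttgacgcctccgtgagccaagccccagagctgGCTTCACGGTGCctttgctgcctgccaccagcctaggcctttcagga
Kcnq1 intronic region, chr7:143314021-143314220, plus strand: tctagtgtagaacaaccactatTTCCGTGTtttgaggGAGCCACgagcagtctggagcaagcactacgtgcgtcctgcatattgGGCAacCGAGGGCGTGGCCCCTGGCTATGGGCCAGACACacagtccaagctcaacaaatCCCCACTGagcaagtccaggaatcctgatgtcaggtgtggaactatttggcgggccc
Kcnma1 intronic region, chr14:24008381-24008560, minus strand: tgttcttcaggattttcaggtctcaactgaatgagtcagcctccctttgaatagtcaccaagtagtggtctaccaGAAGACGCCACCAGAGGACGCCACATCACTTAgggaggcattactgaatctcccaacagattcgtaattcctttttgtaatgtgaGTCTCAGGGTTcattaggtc
The Kcnn1 region is 64.3% G and C with 23 CpG dinucleotides in 280 bases. It holds overlapping matches, 1 on each strand, to GCATGCGC, at bases 183 to 190 and 185 to 192, within a shared footprint. These letters, the core of sites that the factor NRF1 binds, were found in 0.459% of the distal Kcn regions and 0.742% of all distal regions. The motif was added after the sequence had been seen. The Kcnma1 region holds an AP-1 match, TGANTCA, at bases 32 to 38, outside the footprints. Over the distal Kcn regions AP-1 was found in 14.7% against 15.3% of all distal regions, TEAD (GGAATG) in 11.0% against 14.6%, and AGATAA, bound by GATA factors, in 6.42% against 8.46%.

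A match to the consensus of CTCF, the insulator and loop-anchor protein, was present in 8 of these 10 regions, those of Kcnn4 and Kcnma1 among them, and each lay within a shared footprint. The 12-letter consensus was searched on both strands with at most 1 differing base, and this motif too was added after the sequences had been seen. The Kcn shares that follow include the regions that prompted the search, so they are not independent of that choice. No genome share was computed for regions as strong as these 10. Among all 218 distal Kcn regions 73 held a match, 33.5% against 24.1% of all distal regions. The share rose with signal in both sets. In 4 bins of signal, set so that each held the same number of all distal regions, it was, from the lowest up, 8.62%, 25.5%, 39.0% and 61.1% for Kcn regions and 11.0%, 16.9%, 26.0% and 42.4% for all. A base of the match was within a shared footprint in 80.8% of the Kcn regions with a match and in 81.7% of all such regions. With no differing base allowed the shares were 11.5% and 8.93%.

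**Figure D5:**
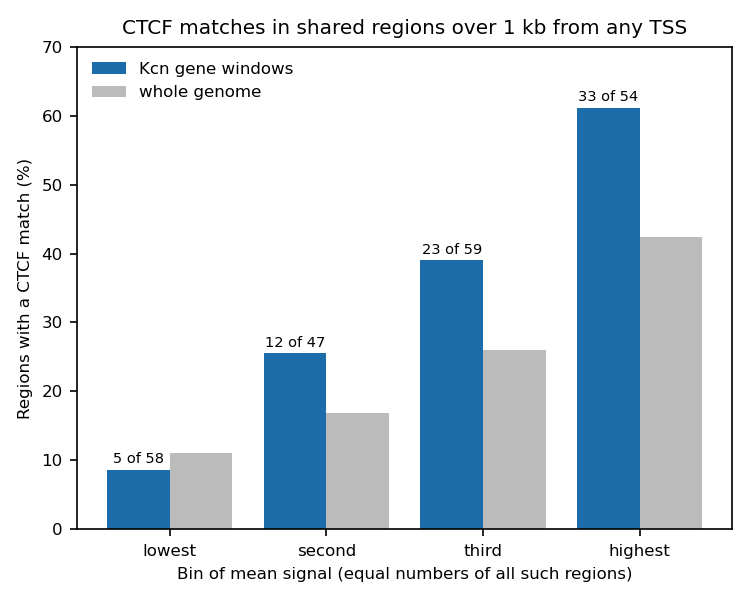
Percent of distal shared regions with a CTCF consensus match (vertical axis) in 4 bins of mean signal of equal size over the genome (horizontal axis), for the 218 regions of Kcn windows and for all 45309 of the genome. The Kcn share is 8.62% in the lowest bin and 61.1% in the highest, and the genome share goes from 11.0% to 42.4%. The Kcn regions include those whose sequences prompted the search.

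Partners of these channels, 39 genes for calcium channels, calcium release channels, calmodulins, HCN channels and known subunits, were open at 29 promoters, 74.4% against 66.1% of all genes, with a median signal of 1.46 against 4.61. Calm3 and Calm2, which encode calmodulin, the calcium sensor of the SK channels, were far above the Kcn median, with 14.8 and 12.8 at Calm3 and 11.7 and 9.36 at Calm2. Cacna1c, the L-type calcium channel of smooth muscle, had 1.35 and 1.18 and 24 regions in its window. Of the subunits of the ATP-sensitive channel, Abcc9 had 0.463 and 0.472 and Abcc8 had no peak. Lrrc26, a subunit of BK in epithelia, had 3.04 and 1.47, above Kcnma1 in both replicates.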

How the data were processed

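DNase-seq of urinary bladder from 1 group of 2 replicates was analysed. Per the labels, coordinates are on mm10. For aligner and callers, names and versions were not given in the sources used here. A signal per peak stands in the deposited peak lists, with no normalization stated. All signals under 1 were whole multiples of 1 step, within 0.01 steps, with a step of 0.00521 in replicate 1 and 0.00799 in replicate 2. Total depth is not known, so intervals assume that 1 step is 1 cut. The deposited FDR track holds the authors' FDR, a p-value or q-value, and lists values up to 0.05. Footprints were used as positions.

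Peaks overlapping by at least 1 bp were joined into regions, and a gene's signal is that of its strongest shared promoter region. TSSs, exons and gene bodies came from GENCODE M21. No test was made, and values are set beside those of all protein-coding genes. Named genes were up to 4 per subfamily by signal, 31 genes studied in smooth muscle or urothelium, and the windows with most regions. Some genes that this rule names are counted but not reported here. The members, lists and motifs were chosen with earlier results of these data known. Alternatives were the stricter lists, equal numbers of peaks, an overlap of 50%, other windows and flanks, and each replicate alone. Python 3.11.15, numpy 2.4.6, pandas 2.3.3, scipy 1.17.1, pysam 0.24.0 and matplotlib 3.10.9 were used, and the scripts' functions were tested on simulated data.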

Additional observations from a re-analysis of the deposited data

How the results depend on the processing

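The count of open Kcn promoters stayed between 44 with the stricter lists and 75 with replicate 1 alone. Beside all genes the share depended on the list: it was 46.8% against 61.8% with the stricter lists, 55.3% against 63.7% with equal numbers of peaks, and 79.8% against 70.5% with replicate 1 alone. With the 5′-most TSS only it was 56.4% against 61.5%. The median signal of open Kcn promoters was under that of all genes in each of the 9 settings where both were computed, the reported one included. It was 1.53 with the stricter lists, 1.42 with equal numbers of peaks, 1.39 with windows of 2500 bp, and 0.989 to 1.08 with 1 replicate left out.

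The 375 regions became 238 with the stricter lists, 721 with flanks of 50 kb, 218 without promoter regions, and 424 to 752 with 1 replicate left out. The median per 100 kb became 1.88 without promoter regions and 5.33 to 7.75 with 1 replicate left out. The 48 promoters with a shared footprint became 56 to 67 with 1 replicate left out. The 73 distal regions with a CTCF match became 25 with no differing base. Of 210 recomputed promoter signals of single genes, 9 moved by more than the SD of the replicates, among them Kcnd2 (0.785), Kcnab1 (0.668) and Kcnq3 (1.26) with windows of 2500 bp. This count says little about robustness. Settings where a promoter was no longer open were left out of the 210, and other settings often returned the same region and value. Leaving 1 replicate out cannot move a value by more than that SD while the same peaks are used. No paired analysis was possible because there is 1 group. With 2 replicates no value has more than 1 difference behind its SD, and the total depth of the libraries is not known.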

Other observations

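Within Kcnq1 lies Kcnq1ot1, a non-coding RNA transcribed from the opposite strand and known to be expressed from 1 parental allele. Of the 31 shared regions of the Kcnq1 window, 9 formed a run of 5.94 kb inside the Kcnq1ot1 transcript, chr7:143264941-143270880. Their signals were 0.0625 to 0.323 in replicate 1 and 0.112 to 0.24 in replicate 2. All 9 were among the weakest shared regions of the genome, between its percentiles 0.0123 and 0.765 for mean signal. In 2 of them a footprint was shared, and from 0% to 9.38% of their bases were repeat-masked. Without the run the window held 22 regions, still the most of any Kcn gene. The region at the Kcnq1ot1 start had 4.08 and 3.38, above the 1.99 and 1.08 of the Kcnq1 promoter. A cause of the run was not tested.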
